A study of Mus musculus with 10 samples.

Results

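In mouse retina, 1427 regions were open in all 4 ATAC-seq peak lists while lying under H3K27me3, the histone mark of Polycomb repression, and under no H3K27ac, the mark of active promoters and enhancers. ATAC-seq marks DNA that a transposase can enter. The 4 ATAC lists were merged wherever peaks shared 1 bp on chromosomes 1 to 19, which gave 116384 merged regions, and 32852 of these held a peak of every list. A region was kept if it overlapped a peak by at least 1 bp in both H3K27me3 lists and in neither H3K27ac list, at any distance from genes, so that the 1427 made up 4.34% of the regions in all 4 lists. The regions were thus chosen by their ATAC, H3K27me3 and H3K27ac peaks, and these are described without a test. Of the remaining regions in all 4 lists, 2839 carried both marks in both genotypes, 18636 carried H3K27ac only and 7325 carried neither, and in 2625 a mark differed between the genotypes.

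The study compared retina with a conditional deletion of Casz1 (Casz1 cKO), a zinc finger transcription factor, with controls labelled wild type, all of strain C57BL/6. For ATAC-seq, retinal explants labelled postnatal day 2 received plasmids for GFP alone (control) or GFP with Cre (cKO), and 50000 live GFP-positive cells per replicate were sorted after 2 days ex vivo, with 2 libraries per genotype made on different days. Which libraries share a day, and whether control explants carried the conditional allele, is not given in the labels. For the histone marks, chromatin came from microdissected postnatal day 0 retina with 1 library per mark and genotype, and the cKO tissue was taken from the peripheral retina under epifluorescence. The driver of Cre and the deleted part of the gene are not given for that tissue. Open chromatin and marks were thus measured in different material, and a region open in some cells and marked in others cannot be told apart from one that is open and marked in the same cell.

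Polycomb group proteins keep developmental genes silent in cells that do not use them. Polycomb repressive complex 2 methylates lysine 27 of histone H3, often over wide stretches that begin at CpG islands, and the same lysine cannot be acetylated while it is methylated. In the developing retina the mark covers regulators of other tissues and body regions, such as the Hox genes, as well as regulators that only some retinal neurons use.

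The lists held between 39636 and 108569 ATAC peaks, between 67849 and 69708 H3K27me3 peaks and between 70458 and 76177 H3K27ac peaks on chromosomes 1 to 19. Every listed peak had the same score, so the number of bases under a peak was the measure used here, and read depth is unknown. All 12 retinal marker genes examined had H3K27ac within 1 kb of an end in both lists, against 2 of 6 blood vessel, 1 of 6 microglia, 1 of 6 pigment epithelium, 1 of 4 lens, 1 of 3 astrocyte and 1 of 3 erythroid markers. The Casz1 gene, on chromosome 4 from 148804366 to 148954893, held 18 regions in all 4 ATAC lists, none of them among the 1427, with 17 under H3K27ac only and 1 under both marks.

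Promoter sequences of 5 genes show what lay under such regions. Each run holds 250 bases before and 50 after a RefSeq transcription start on build GRCm38.p6 (the assembly of mm10), written 5′ to 3′ on the gene's strand, with every CG dinucleotide in capitals. CG-rich stretches are the sites where H3K27me3 usually starts. Tbx18, Wif1 and Shisa3 had the widest ATAC peaks among regions on a promoter window, and Wnt4 and Dct were chosen after their values were seen, as the listed genes with the most and the fewest CG. The windows lie at chr9:87731211-87731510 on the minus strand (Tbx18), chr10:121033754-121034053 on the plus strand (Wif1), chr5:67607633-67607932 on the plus strand (Shisa3), chr4:137277385-137277684 on the plus strand (Wnt4) and chr14:118052197-118052496 on the minus strand (Dct).
Tbx18: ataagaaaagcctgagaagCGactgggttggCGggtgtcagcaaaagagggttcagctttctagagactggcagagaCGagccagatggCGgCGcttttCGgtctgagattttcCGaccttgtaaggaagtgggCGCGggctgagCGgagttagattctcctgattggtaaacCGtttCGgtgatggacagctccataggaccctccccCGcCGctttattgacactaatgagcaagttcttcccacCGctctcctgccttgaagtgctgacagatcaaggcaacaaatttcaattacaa
Wif1: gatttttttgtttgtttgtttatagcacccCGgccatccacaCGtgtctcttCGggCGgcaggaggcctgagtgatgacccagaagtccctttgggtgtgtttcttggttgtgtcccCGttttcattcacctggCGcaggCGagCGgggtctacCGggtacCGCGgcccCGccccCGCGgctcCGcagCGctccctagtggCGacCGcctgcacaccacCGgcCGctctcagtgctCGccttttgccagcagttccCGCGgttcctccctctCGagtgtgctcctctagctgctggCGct
Shisa3: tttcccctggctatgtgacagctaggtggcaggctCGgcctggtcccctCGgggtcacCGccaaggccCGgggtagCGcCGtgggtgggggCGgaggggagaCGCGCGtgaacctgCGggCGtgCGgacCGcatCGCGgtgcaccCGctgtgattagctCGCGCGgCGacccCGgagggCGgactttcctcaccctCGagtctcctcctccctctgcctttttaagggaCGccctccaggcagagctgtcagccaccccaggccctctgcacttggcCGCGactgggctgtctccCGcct
Wnt4: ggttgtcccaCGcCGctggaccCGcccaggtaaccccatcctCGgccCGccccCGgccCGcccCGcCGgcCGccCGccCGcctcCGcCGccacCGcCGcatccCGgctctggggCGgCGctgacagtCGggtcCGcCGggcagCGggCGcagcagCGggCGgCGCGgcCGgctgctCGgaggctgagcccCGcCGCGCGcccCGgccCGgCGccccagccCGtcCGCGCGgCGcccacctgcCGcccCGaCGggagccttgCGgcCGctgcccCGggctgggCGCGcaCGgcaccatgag
Dct: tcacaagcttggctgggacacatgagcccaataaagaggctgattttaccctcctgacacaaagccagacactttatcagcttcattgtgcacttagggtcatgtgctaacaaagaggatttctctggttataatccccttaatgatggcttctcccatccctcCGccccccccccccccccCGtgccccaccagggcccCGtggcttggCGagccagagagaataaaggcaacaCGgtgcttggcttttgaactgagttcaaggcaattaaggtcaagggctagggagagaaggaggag
The Wnt4 window held 51 CG and 84.3% G+C, the Shisa3 window 28 and 70%, the Wif1 window 25 and 63%, the Tbx18 window 15 and 51.7%, and the Dct window 5 and 53.3%. All 5 windows lay whole inside an open region.

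Over all promoter windows that such a region overlapped, 175 windows of 164 genes, the median was 18 CG (quartiles 11 and 25) and 61% G+C. At least 15 CG were found in 60% of them and fewer than 5 in 4.57%. Of all 31396 promoter windows on these chromosomes, 35.2% held at least 15 CG and 37.6% fewer than 5. Windows at open regions with both marks were richer still, with a median of 24 CG and 79.5% at 15 or more, and those with H3K27ac only had a median of 22 and 77.0%. Windows at open regions with neither mark had a median of 6, and 3.85% reached 15. The windows under H3K27me3 alone were thus on the CG-rich side but not the richest. Short motifs were searched on both strands. The letters CCCTC, the core of the CTCF site, were in 81.1% of the 175 windows and 66.3% of all windows, and CACGTG, an E-box, in 12% and 7.14%. In windows with both marks, with H3K27ac only and with neither, CCCTC was in 83.9%, 75.4% and 66.2%. CACGTG was in 9.19%, 10.6% and 6.15% in the same order, so neither motif was particular to the Polycomb-only windows. The E-box CAGCTG was in 13.1% against 16.3%, the homeodomain core TAATTA in 3.43% against 5.27%, and TCAGCAC, a piece of the site of the repressor REST, in 4.57% against 5.08%. These matches are of letters only, and CG and G+C content differ between the sets.

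Most of the 1427 regions lay away from gene ends. An end of a protein-coding gene (RefSeq, either end) was within 1 kb of 273 regions, or 19.1% (exact 95% binomial interval 17.1 to 21.3%, counting error only), against 63.4% of regions with both marks, 44.5% with H3K27ac only and 6.33% with neither. A 300-bp promoter window was overlapped by 158 of the 1394 regions on chromosomes for which windows were used, or 11.3%, against 54.0%, 41.6% and 1.78% in the same order. Another 439 were inside a protein-coding gene and more than 1 kb from its ends, and 715 (50.1%) were outside protein-coding genes and more than 1 kb from any end. The median distance to a gene end was 8.36 kb, between the 2.93 kb of regions with H3K27ac only and the 17.9 kb of regions with neither mark. More than 50 kb from a gene end were 316 regions (22.1%), near the 19.8% of all regions in the 4 lists. Of all those regions 34.5% were within 1 kb of a gene end, and their median distance was 6.71 kb. No annotated gene of any kind was overlapped by 590 regions (41.3%), against 24.7% of all regions in the 4 lists. By distance to gene ends the Polycomb-only regions stood between the other marked classes and the unmarked class.

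**Figure D1:**
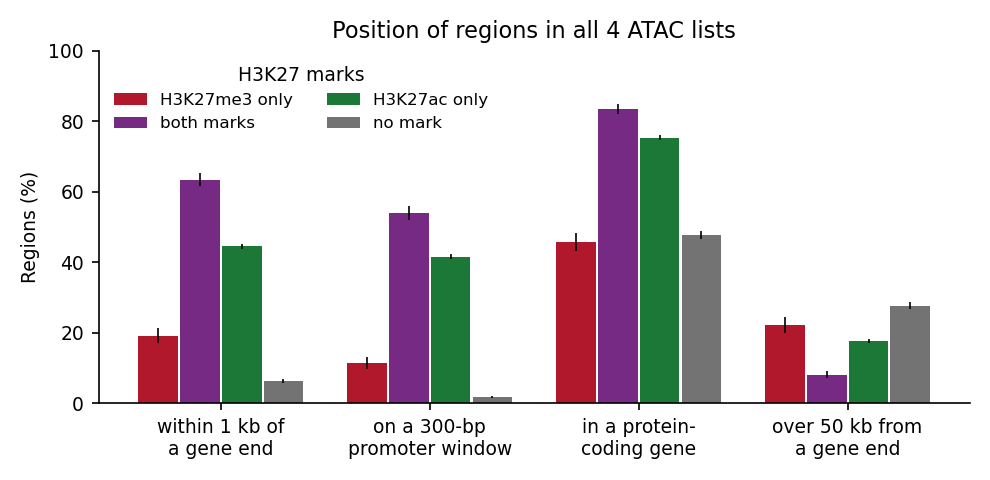
Share of regions in all 4 ATAC lists (y axis, %) by position (x axis) for 4 classes of H3K27 marks; error bars are exact 95% binomial intervals, which cover counting error only. Regions with H3K27me3 only reach 19.1% within 1 kb of a gene end, above the 6.33% of unmarked regions and below the 63.4% of regions with both marks.

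The regions sat inside wider H3K27me3 domains. In the control list the mark covered a median of 99.7% of a region's bases and in the cKO list 99.4%, and 700 regions (49.1%) were at least 90% covered in both lists. In 482 regions (33.8%) less than 50% of the region was covered in at least 1 list. Within the 10 kb centred on a region, a median of 6671 bp (control) and 6617 bp (cKO) lay under H3K27me3, against 4078 and 4038 bp around regions with both marks. The nearest H3K27ac peak of either list was a median of 13.8 kb away, within 1 kb of 125 regions and farther than 50 kb from 291.

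**Figure D2:**
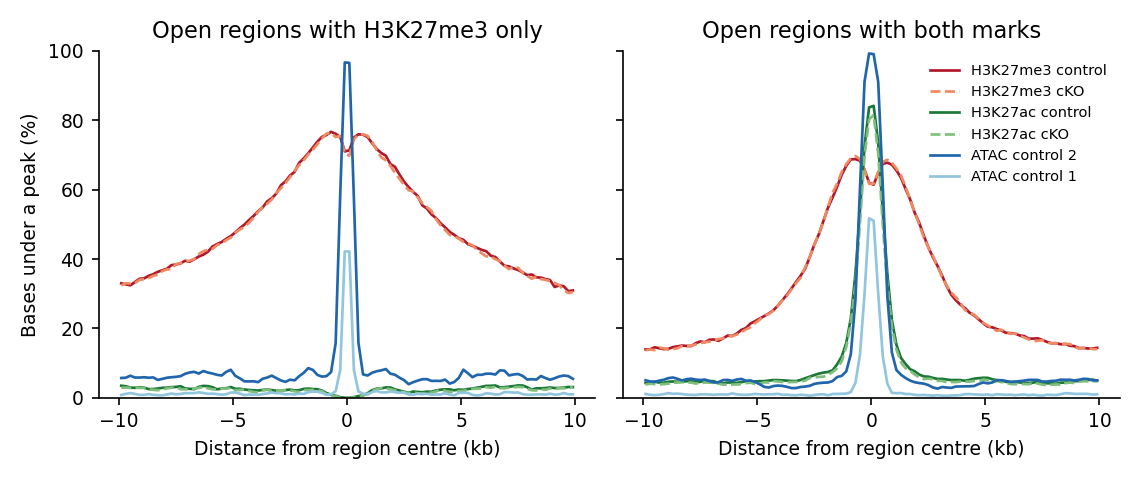
Share of bases under a peak (y axis, %) in 200-bp steps up to 10 kb from the region centre (x axis, kb), for regions with H3K27me3 only (left) and with both marks (right), by list. H3K27me3 around regions with H3K27me3 only falls from 75.2% at 1.1 kb before the centre to 33.0% at 9.9 kb in the control list, and to 14.0% around regions with both marks; the absence of H3K27ac at the centre on the left was set by the choice of regions.

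The H3K27me3 lists showed a shallow dip at the centre of the open regions. In the control list 71.0% of bases were covered 0.1 kb before the centre and 75.2% at 1.1 kb before it, and in the cKO list 70.4% and 74.8%. On the other side the control values were 71.3% at 0.1 kb and 73.4% at 1.1 kb. Regions with both marks dipped in the same place, from 66.9% to 62.0% in the control list.

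Merging the peaks of both H3K27me3 lists gave 83822 stretches with a median width of 0.294 kb. The 1260 stretches that held one of the open regions had a median width of 4.96 kb, and 1142 of them held 1. A wide stretch has more room for an open region, so picking stretches this way favours wide ones. Stretches over 5 kb contained 781 of the 1427 regions. The stretch with the most, 14, was 97.8 kb wide on chromosome 8 (chr8:123536638-123634485). It overlapped the protein-coding gene Gas8, and Gas8 or Rhou was nearest to its 14 regions. The stretch holds an array of 5S ribosomal RNA genes, which encode the small RNA of the large ribosomal subunit and are transcribed by RNA polymerase III. RefSeq places 48 such genes there, with starts a median of 1698 bp apart, and 13 of the 14 open regions each lay on exactly 1 of them, among them n-R5s104, n-R5s133 and n-R5s149. Their ATAC peaks were narrow: in the first control library they covered 106 to 183 bp (median 131), in the second control library 280 to 368 bp (median 348), in the first cKO library 180 to 371 bp (median 308) and in the second 111 to 270 bp (median 144). All 13 were fully under H3K27me3 in both lists. Taken list by list, an ATAC peak lay on 15, 45, 40 and 33 of the 48 genes in control 1, control 2, cKO 1 and cKO 2, an H3K27me3 peak on all 48 in both lists and an H3K27ac peak on 0 in both. The sources used here do not say how reads matching several copies were treated, so the copies may not be told apart in these lists.

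Of the 15 regions in all 4 lists that overlapped an annotated rRNA gene, 14 had H3K27me3 only and 1 had both marks. On genes for tRNA, which polymerase III also reads, lay 124 regions in all 4 lists, of which 7 had H3K27me3 only and 92 H3K27ac only. Of the 45 regions on snRNA genes and the 28 on snoRNA genes, 0 had H3K27me3 only. Of all regions in the 4 lists, 4.34% had H3K27me3 only and 56.7% H3K27ac only. At a share of 4.34%, sets of this size hold few such regions, so the low counts do not set these genes apart. These counts come from the merged lists and carry no test.

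The Hox clusters supplied the next stretches. The HoxD cluster with Evx2 (chr2:74636870-74780975, 144 kb) held 6 open regions, and these were all the regions in all 4 lists within it. HoxC (272 kb) held 4 of 4 and HoxA with Evx1 (192 kb) 4 of 5. A 56.8 kb stretch over Wnt6 and Wnt10a on chromosome 1 held 5 of 6, and a stretch of 43.5 kb over Wnt1, Wnt10b and Ddn held 4. Lmx1b, a LIM homeobox gene of limb and midbrain, had 4 in a stretch of 96.1 kb.

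The ATAC peaks in these regions were short. From here on, bases under an ATAC peak are given in the order control 1, control 2, cKO 1 and cKO 2. The medians over the 1427 regions were 169, 650, 608 and 266 bp, against 253, 790, 751 and 405 bp over all regions in the 4 lists and 146, 553, 528 and 204 bp over unmarked regions. Regions with both marks had 343, 1093, 1041 and 536 bp. Each list ranked the classes alike at the low end, with unmarked regions lowest and Polycomb-only regions next. The first control library and the second cKO library gave the narrow peaks in every class, so the libraries did not sort by genotype.

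**Figure D3:**
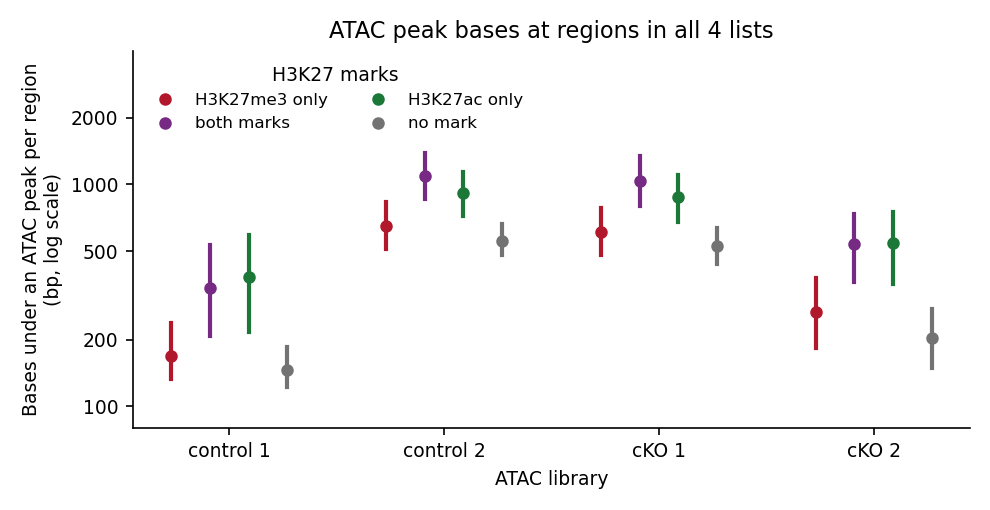
Bases under an ATAC peak per region (y axis, bp, log scale) in each ATAC library (x axis) for 4 classes of H3K27 marks; points are medians and bars run from the lower to the upper quartile over regions. Regions with H3K27me3 only have medians of 169, 650, 608 and 266 bp, below regions with H3K27ac only in every library, and control 1 and cKO 2 are low in all classes.

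Requiring all 4 ATAC lists left out most regions with the Polycomb mark alone. Of all 7527 merged regions with H3K27me3 only, 1427 were in 4 ATAC lists, 1321 in 3, 2808 in 2 and 1971 in 1. Of merged regions with both marks 61.0% were in all 4, of those with H3K27ac only 57.9%, and of unmarked ones 12.3%. These are shares of regions in the same libraries, and the marks of each class are those of the rule, so the order is a description.

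The open regions that ranked highest in scaled ATAC bases were not all at genes. The widest by ATAC bases, chr17:39843041-39848784, lay on the 18S ribosomal RNA related sequence Rn18s-rs5, with 5317, 5507, 5454 and 5744 bp, so that control 1 was as wide as the others there. The same held at chr14:19415720-19419493 (3763, 3353, 3329 and 3767 bp) and at chr15:75085518-75087039 near Ly6c2 (1519, 1497, 1484 and 1507 bp). Several others lay at the start of a chromosome's assembled sequence, such as chr9:3000035-3002806 (2052, 2729, 2703 and 2060 bp). In all, 33 of the 1427 regions began within 3.5 Mb of a chromosome's first base, 16 of them on chromosome 9, of 125 such regions in all 4 lists. Without these 33, the 14 regions on rRNA genes and the region on Rn18s-rs5, which RefSeq lists as a pseudogene, 1379 regions remained and 19.7% were within 1 kb of a gene end.

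Tbx18 and Wif1 ranked highest in scaled ATAC bases at protein-coding promoters. Tbx18 encodes a T-box factor of heart, limb and ureter mesenchyme. Its promoter region (chr9:87729480-87731646) had 379, 2167, 2014 and 675 bp under ATAC peaks, with the whole 10 kb around it under H3K27me3 in both lists and the nearest H3K27ac 110762 bp away. Control 2 and cKO 1 were wide and control 1 and cKO 2 narrow, so the genotypes overlapped. Wif1, a secreted Wnt inhibitor, had a more even region (chr10:121033198-121034394) with 862, 1166, 1192 and 856 bp. The promoters of the cell cycle inhibitor genes Cdkn2b (573, 1074, 1072 and 661 bp) and Cdkn2a (202, 744, 492 and 149 bp), neighbours on chromosome 4, were also open under H3K27me3 alone.

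Genes near the open regions were examined by family. Of the 1427 regions, 761 (53.3%) had the end of a protein-coding gene no farther than 10 kb away. They were nearest to 667 genes, which is 3.23% of the 20665 protein-coding genes on these chromosomes. Over 7 lists of transcription factor families, 93 of 306 genes (30.4%) had one. Without the first control list 2666 regions qualified and 150 of these genes had one. The share of all protein-coding genes was not computed for that larger set, so the 150 has no background beside it. Gene lists were drawn up with earlier results of these data known, and a wide H3K27me3 domain offers more room for such a region, so the counts describe the genes and carry no test.

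**Figure D4:**
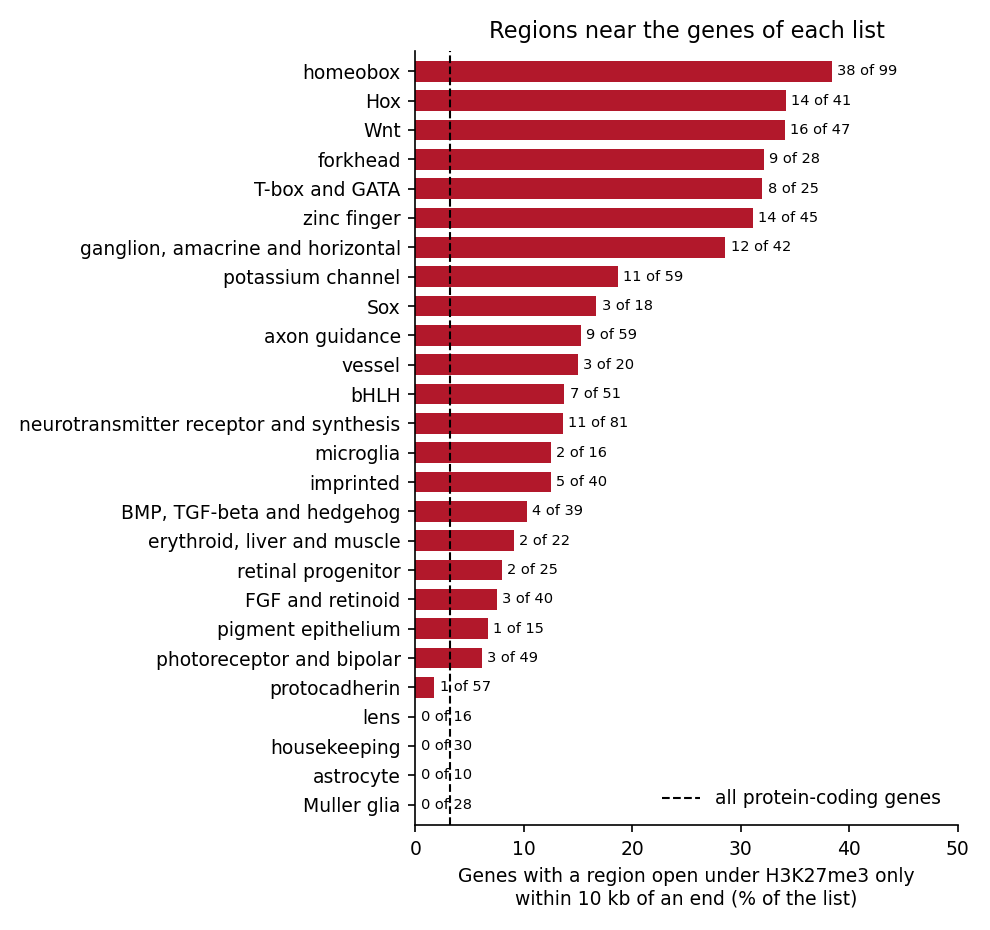
Share of the genes of each list with an open region under H3K27me3 only nearest to them within 10 kb of an end (x axis, %), with the count beside each bar; the dashed line marks the 3.23% of all protein-coding genes. Homeobox, Hox, Wnt and forkhead genes lie highest, with 38 of 99, 14 of 41, 16 of 47 and 9 of 28, and housekeeping, Müller glia, lens and astrocyte genes are at 0.

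Hox genes give cells their position along the body axis and are not used in the retina. Of 41 genes in the Hox list, 14 had an open region with H3K27me3 only, and 0 had one with both marks, with H3K27ac only or with neither, where the shares of all protein-coding genes were 3.23%, 10.3%, 45.3% and 11.8%. The region on the Hoxd9 promoter (chr2:74697524-74698574) had 315, 1051, 895 and 410 bp under ATAC peaks and lay 117949 bp from H3K27ac. The region 35 bp from Hoxa10 had 140, 672, 694 and 196 bp. Evx2, at the border of HoxD, had 2 regions, with 192, 482, 536 and 340 bp and with 112, 352, 370 and 133 bp. Evx1, beside HoxA, also had 2, one of them with 127, 1076, 1109 and 123 bp. All of these lay in 10 kb that was under H3K27me3 from end to end in both lists.

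Other homeobox genes had the largest share, 38 of 99 (38.4%), with 19.2% having a region with both marks and 5.1% one with H3K27ac only. Pax2, which acts in the optic stalk, had 2, with 125, 347, 421 and 147 bp at its promoter. Lmx1b had 136, 474, 372 and 147 bp and 204, 573, 407 and 212 bp at the 2 regions nearest its ends. Tlx1, a spleen regulator, had 2, one with 137, 700, 727 and 615 bp.

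Forkhead genes (9 of 28) and T-box and GATA genes (8 of 25) included regulators of gonad, gut, heart and blood vessels. Foxl2, an ovary factor, had a promoter region of 106, 1324, 1639 and 110 bp, narrow in control 1 and cKO 2 and wide in the other libraries. Foxa2, an endoderm and floor plate factor, had 145, 878, 844 and 316 bp, and Foxf1 of lung mesoderm 135, 932, 904 and 415 bp. Gata6, a heart and endoderm factor, had 244, 1048, 939 and 171 bp, and Tbx20, a heart factor, 219, 970, 572 and 288 bp. Eomes, a T-box factor that a few ganglion cells also use, had 2 regions, with 123, 638, 352 and 160 bp and with 217, 649, 622 and 370 bp.

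Among zinc finger factors 14 of 45 genes had a region, and 22 had one with both marks. Sp8 had 3 regions and Sp9, its relative in limb and forebrain, had 2, one on its promoter with 160, 741, 661 and 209 bp. Sall1, a kidney and microglia regulator, had 2 on its promoter, with 115, 1108, 456 and 114 bp at the wider, and H3K27ac 727 bp away, while the 10 kb around it lay fully under H3K27me3. Basic helix-loop-helix genes, many of which the retina uses, had fewer, 7 of 51, where 17 had a region with H3K27ac only. Neurog1, a proneural factor of sensory ganglia, had 148, 1651, 1577 and 488 bp on its promoter, and Olig1, an oligodendrocyte factor, 203, 1210, 1181 and 311 bp. Tal1, a blood and endothelial regulator, had 128, 1141, 1115 and 301 bp. Sox genes had 3 of 18 genes with such a region: Sox21 (162, 1069, 1033 and 412 bp at its promoter), Sox1 and Sox2. The Sox2 region, 8853 bp from the gene and 795 bp from H3K27ac, had 179, 374, 393 and 195 bp.

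Wnt ligands, receptors and antagonists had 16 of 47 genes with such a region. Ligands led the list: Wnt10a (391, 704, 691 and 456 bp at the region 420 bp from its end) and Wnt6, which are neighbours and share 1 stretch, and Wnt9a (365, 794, 790 and 521 bp at the nearer of 2). Dkk2, a secreted antagonist, had 2 regions, with 416, 429, 545 and 403 bp at one of them, so that control 1 was close to control 2 there. Wif1 and Dkk1 were the other antagonists, Lgr6 the receptor and Rspo3 the agonist. BMP, TGF-beta and hedgehog genes had 4 of 39. Bmp8a, a BMP ligand, had 264, 1048, 1259 and 685 bp at its promoter, and Ihh, a hedgehog ligand of bone and gut, 106, 1353, 1097 and 273 bp. The retinoic acid degrading enzymes Cyp26b1 (222, 593, 550 and 193 bp) and Cyp26c1 (235, 509, 830 and 219 bp) and the retinoid receptor Rxrg, used by cones, were the 3 of 40 FGF and retinoid genes.

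Retinal neuron genes were split. Of 42 ganglion, amacrine and horizontal cell genes, 12 had a region under H3K27me3 only and 23 one with both marks. Pou4f1, which encodes the ganglion cell factor BRN3A, had 2, Slc32a1, the vesicular transporter of GABA and glycine, had 2 (142, 474, 520 and 277 bp at the nearer), Ebf1 had 2 and Calb1, the calcium binding protein of horizontal cells, had 1 of 139, 875, 1004 and 242 bp. Of 49 photoreceptor and bipolar genes 3 had one, Rxrg, Gnb1 and Guca1a, which encodes a guanylate cyclase activator of photoreceptors (108, 596, 719 and 189 bp). Of 25 progenitor genes 2 had one, Nfix and Sox2, where 17 had a region with H3K27ac only. Of 28 Müller glia genes and 30 housekeeping genes 0 had one, and 20 and 27 of these had a region with H3K27ac only.

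Genes of neuronal signalling had intermediate shares, above 3.23%. Potassium channels had 11 of 59, among them Kcnk12 (141, 1721, 1653 and 461 bp) and Kcnn3 (293, 763, 1187 and 308 bp). Axon guidance genes had 9 of 59, led by Robo3, a receptor for midline crossing, with 3 regions, of which the nearest had 176, 362, 327 and 221 bp. Sema6c had 106, 1930, 1681 and 310 bp. Neurotransmitter genes had 11 of 81, with Adra2b at its promoter (203, 904, 518 and 427 bp) and Slc17a7, the vesicular glutamate transporter that photoreceptors use (535, 764, 732 and 504 bp). At the Slc17a7 region 161 bp (control) and 206 bp (cKO) of the region lay under H3K27me3, so that most of it was outside the mark.

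Markers of other cell types in the eye had shares on both sides of 3.23%. Blood vessel genes had 3 of 20 (15%): Flt4, a receptor of lymphatic endothelium (106, 1715, 1744 and 192 bp at its promoter), Erg and Esam. Microglia genes had 2 of 16 (12.5%), Irf8 (158, 1093, 991 and 383 bp at its promoter) and C1qc. Pigment epithelium had Dct, the melanin enzyme (374, 771, 693 and 544 bp), as 1 of 15, and lens and astrocyte genes had 0 of 16 and 0 of 10. H3K27ac was found at 2 of 6 vessel, 1 of 6 microglia and 1 of 6 pigment epithelium markers, and the part of such cells in these regions was not tested. Imprinted genes had 5 of 40, including Cdkn1c with 2 regions and Sfmbt2, a Polycomb group gene (244, 1618, 1482 and 331 bp). Clustered protocadherins had 1 of 57, Pcdhac1 (235, 951, 924 and 269 bp).

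The rule's limits ran through a graded set. The smallest overlaps with H3K27me3 among kept regions were 1 bp, in the cKO list, at regions nearest to Gm34296 and Med13l, and 4 bp, in the control list, near Fam241a, and 63 regions had under 50 bp in at least 1 list. Just outside were regions near Rtn4rl1, Wnt3a and Cavin1, dropped for 4, 6 and 13 bp of H3K27ac, and regions near Dhx35, Gm10209 and Ctnnbl1, where an H3K27me3 peak of 1 list abutted the region or ended 2 bp short. H3K27ac in the control list alone kept out 132 regions and in the cKO list alone 120. H3K27me3 in the control list alone kept out 175 and in the cKO list alone 148. Asking for 50% of the region under H3K27me3 in each list would have left 945 regions, and asking for ATAC peaks of at least 200 bp 469. The first control list was the shortest of the ATAC lists, and without it 2666 regions qualified.

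For the comparison of genotypes, the bases under ATAC peaks were divided by the median over all regions in the same list, on a log2 scale. The median over the 1427 regions was -0.58 in control 1, -0.28 in control 2, -0.30 in cKO 1 and -0.61 in cKO 2. The cKO values overlapped the control values, and the difference in means, cKO minus control, was -0.02. All 4 lists entered the choice of regions, and 2 against 2 libraries allow no exact two-sided permutation p below 0.333, so the difference is given as a description. Both cKO libraries were above both controls at 95 regions (6.66%), against 6.65% of all regions in the 4 lists. Both were below both controls at 173 regions (12.1%), against 9.49% of all regions, 13.7% of unmarked regions, 8.21% of regions with both marks and 7.69% of those with H3K27ac only. The share of higher regions was at the background, and the share of lower regions was near that of the unmarked class. Without scaling, 1.05% were higher and 0.280% lower, and the difference in means turned to 0.28.

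The widest gap between the genotypes in either direction was at Pou4f1. Its region 760 bp from the gene (chr14:104460466-104460915) had 221 and 439 bp in the controls and 201 and 116 bp in the cKO, lower in both cKO libraries also without scaling. On the scaled log2 scale both cKO values lay at least 0.96 below both controls. The other region of Pou4f1 (chr14:104456879-104457444), with 106, 566, 467 and 152 bp, showed no such order. Regions near Foxi2 (176, 691, 322 and 153 bp), on Gsc2 (247, 895, 483 and 218 bp), near Odf3l1 (151, 639, 301 and 136 bp) and near Col1a1 (145, 458, 301 and 112 bp) followed. In the other direction, a region near Nectin1 (chr9:43919519-43920696) had 208 and 854 bp in the controls and 1150 and 643 bp in the cKO, a scaled gap of 0.50. Regions on Lhfpl5, near Obsl1, on Bmp8a and on Nid2 had gaps of 0.37 to 0.33. Without scaling the genotypes overlapped at each of these regions except the one near Pou4f1. The 10 regions were picked as extremes of 1427 and carry no test.

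H3K27me3 around the regions was compared with 1 library per genotype and hence no test. The choice of regions required a peak in both lists, which by construction favours similar values. The median log2 ratio of bases under H3K27me3 in 10 kb, cKO over control, was 0 (quartiles -0.06 and 0.04), with more in the cKO at 534 regions, fewer at 649 and the same at 244. A window cannot hold more than 10000 bp, so windows fully covered in both lists count as the same. Where the window of one list was already widely covered, the other list could not exceed it 1.5-fold. The cKO had at least 1.5 times the control at 23 regions (1.61%), where 2.86% of all regions in 4 lists with H3K27me3 in both did, and the reverse held at 39 (2.73%), where 3.17% did. Mean control coverage was 6279 bp at the 1427 regions and 5130 bp over that background, so these shares compare sets of unlike coverage. With regions chosen on the cKO histone lists alone, 3.72% had at least 1.5 times more in the cKO, and with the control lists alone 4.79% had less. Of the 62 regions, 40 had under 2000 bp of the mark in the higher library, as did 180 of the 1427. The largest ratios were likewise at thinly marked places, where the limit of 10000 bp leaves the most room. The region near Dlc1 had 191 bp in the control and 750 bp in the cKO (log2 ratio 1.97), and those near Mepe, Ccr4, Fam169b and Nav2 had log2 ratios of 1.92 to 1.68. In the other direction the region near Alpi, an intestinal phosphatase, had 708 and 172 bp (log2 ratio -2.04), followed by regions near Ppp1r21, Zbtb7c, Gm12447 and Dock5 down to -1.38.

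**Figure D5:**
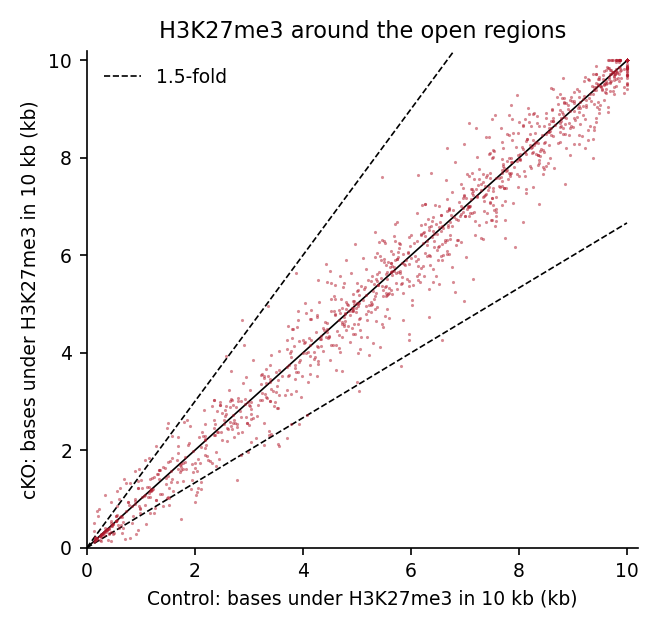
Bases under an H3K27me3 peak in the 10 kb around each of the 1427 regions in the control list (x axis, kb) and the cKO list (y axis, kb), 1 point per region; the solid line marks equal values and the dashed lines 1.5-fold. Points follow the solid line, and of the 62 regions past a dashed line 40 have under 2000 bp in the higher list. Values cannot exceed 10 kb, which limits how far a widely covered region can rise.

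Of 919 microRNA hairpins in RefSeq on these chromosomes, 3 lay in one of the regions. The mature sequences of Mir1199 and Mir449c are written 5′ to 3′ with the seed, bases 2 to 8, in capitals, and the seeds differ from one another.
mmu-miR-1199-3p: uGCGGCCGgugcucagucggc
mmu-miR-1199-5p: uCUGAGUCccggucgcgcgg
mmu-miR-449c-5p: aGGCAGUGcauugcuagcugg
mmu-miR-449c-3p: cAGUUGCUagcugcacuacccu
Mir1199 overlaps the gene Misp3, and its region (chr8:84011122-84011889) had 286, 755, 756 and 425 bp. Mir449c lies in Cdc20b, a host locus known from multiciliated cells, in a region with 208, 614, 568 and 258 bp.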

How the data were processed

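ATAC-seq (4 libraries), H3K27ac (2) and H3K27me3 (2) peak lists were used, and input chromatin was not analysed here. Per the submitters' processing notes, Bowtie2, deepTools, MACS2 and build mm10 were used; the sources used here give no versions or thresholds. The deposited BED lists give peak positions and a score that is 0 for every peak, so no height or read depth is known, and a library's depth and peak threshold both bear on which peaks are listed and how wide they are. Peaks were merged at 1 bp overlap, and bases under peaks were counted, with Python 3.11.15, pandas 2.3.3 and NumPy 2.4.6. The overlap functions were tested on simulated intervals. ATAC bases were scaled by each library's median over regions in all 4 lists, and binomial intervals were computed with SciPy 1.17.1. An exact permutation test between genotypes was planned, but it cannot fall below 0.333 with these libraries and is not used. Replicates have no stated culture of origin. Genes, promoter and microRNA sequences are RefSeq, GRCm38.p6. Promoter windows covered 16457 of 20665 protein-coding genes, and chromosome 18 promoters were not used here. The regions and gene lists were chosen with earlier results of these data known. Named regions were, by rule, the 10 widest in scaled ATAC bases, the 5 stretches with most regions, the 5 largest H3K27me3 changes per direction, up to 4 genes per list, the regions nearest the limits of the rule, and Casz1. The 5S array genes, Cdkn2a, Cdkn2b, further stretches and the ATAC gaps were named after their values were seen. Some results that the rule names are not reported here.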

Additional observations from a re-analysis of the deposited data

How the results depend on the processing

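Of the results recomputed under each alternative, 92 values stayed within their limits, 31 moved and 6 changed sign. Requiring 50% of a region under H3K27me3 left 945 regions, put 24.0% at a gene end and lowered the shares past 1.5-fold in H3K27me3 to 0.317% (more in cKO) and 0.635% (fewer). ATAC peaks of at least 200 bp left 469 regions, 33 transcription factor genes, 22.2% at a gene end, 9.38% higher and 8.74% lower in both cKO ATAC lists, 0.426% with more H3K27me3 in cKO and an ATAC difference of 0.027. The ATAC difference, -0.02 in the report, also changed sign on merging peaks within 500 bp (0.0086), with no H3K27ac within 1 kb (0.010) and without scaling (0.28, with 1.05% higher and 0.280% lower). With the control histone lists alone 4.79% had less H3K27me3 in cKO, and with the cKO lists alone 3.72% had more. A gene end within 5 kb was found for 42.5%, and a fold of 2 gave 0.631% more and 0.701% less H3K27me3. Leaving out 1 ATAC library gave from 1416 to 2666 regions (the most without control replicate 1) and 93 to 150 transcription factor genes, 15.7 to 32.8% higher and 23.7 to 44.4% lower in cKO, where 3 libraries overlap less often by construction, and an ATAC difference from -0.18 to 0.12. The replicate numbers are not stated to pair libraries, and same-numbered libraries deviated in opposite directions (correlation -0.64 across regions). With the replicate number as a block, 10.5% were higher and 17.3% lower, against 10.0% and 15.3% of all regions in the 4 lists. With the numbers crossed, an alternative chosen after seeing the data, 282 regions (19.8%) were higher and 441 (30.9%) lower, against 16.8% and 30.1% of all regions. Also chosen after seeing the data, leaving out chromosome starts, rRNA genes and Rn18s-rs5 kept every one of these results within its limits. Of 40 values for named regions, 31 kept their call, and 9 ATAC gaps closed without scaling. Depth is unknown, so an unlisted peak does not show that signal is absent, and the shortest ATAC list, with 39636 peaks, sets which regions qualify.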

Other observations

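Chromosome X was outside the choice of regions. By the same steps it held 656 regions in all 4 ATAC lists, of which 28 (4.27%) had H3K27me3 only, against 4.34% on the autosomes. The other classes were unlike those of the autosomes. Both marks were carried by 192 of the 656, H3K27ac only by 310 and neither mark by 59. On the autosomes the shares were 8.64%, 56.7% and 22.3% in the same order. Genes for long noncoding RNA were overlapped by 218 of the 1427 regions (15.3%), against 14.0% of all regions in the 4 lists and 17.7% of those with both marks. Annotated pseudogenes were overlapped by 3 (0.210%), against 0.527%. These values carry no test.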
